A study of Mus musculus with 6 samples.

Results

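Beta-actin (Actb), gamma-actin (Actg1) and profilin 1 (Pfn1) are mRNAs of the actin cytoskeleton, and here they were followed through a chromatin capture aimed at telomeres. Their members in the deposited tables are the assembled transcript models with at least 50% of their exon bases in the mm10 span of one of the 3 genes. There were 7 such models of 7959 in all: 2 of Actb, 3 of Actg1 and 2 of Pfn1. The study used MEL cells, an erythroleukemia line of the mouse that the labels place in strain C57BL/6, grown in medium with serum and crosslinked with formaldehyde in all groups. RNA was sequenced from 3 groups of 2 libraries each. These were input chromatin, chromatin isolated with masked TH59-DB (the negative control probe), and chromatin isolated with TH59-DB, a polyamide of pyrrole and imidazole units that targets telomere repeats. A library without a number in its label was taken as number 1, beside the one marked as the repeat, and separate cultures are not mentioned.

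Actin monomers polymerise into filaments that carry cell shape, movement and division. Actb and Actg1 encode the cytoplasmic actins, which are nearly identical proteins made in most cells, so parts of their coding sequences are also close. Pfn1 encodes a small protein that binds actin monomers, exchanges their nucleotide and delivers them to growing filament ends. The mRNAs of all 3 genes are abundant housekeeping messages, translated in the cytoplasm, and actin genes are textbook targets of serum response factor (SRF), which binds a CArG box.

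The Actb models lay on chromosome 5. The first was 1058 bases long in 5 exon blocks from 142904074 to 142906726. The second was a single block of 366 bases from 142903131 to 142903496, at the downstream end of the gene, which lies wholly in the span of the lncRNA gene Gm38733 as well, so its reads cannot be told apart between the genes. The Actg1 models lay on chromosome 11. They were 409 bases in 2 blocks (120346645 to 120347145), 213 bases in 2 blocks (120347324 to 120347822) and 194 bases in 1 block (120346645 to 120346838). The last shares 174 bases with the 409-base model, so the same reads may be counted in both. The Pfn1 models lay on chromosome 11, with 626 bases in 3 blocks from 70652058 to 70654617 and 205 bases in 1 block from 70656081 to 70656285. Of the 626-base model, the block of 269 bases from 70654349 to 70654617 also lies in the span of Eno3, the muscle enolase gene, so its reads cannot be told apart between the genes by position. The 205-base model lies upstream of the start site used for the promoter sequence and wholly in the span of Eno3. All multi-block models were listed on the minus strand, the strand of these genes. The single-block models were listed on the plus strand in the files of library number 1 and with no strand in those of number 2. No exon or UTR annotation was used here, so blocks are given by position only.

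**Figure D1:**
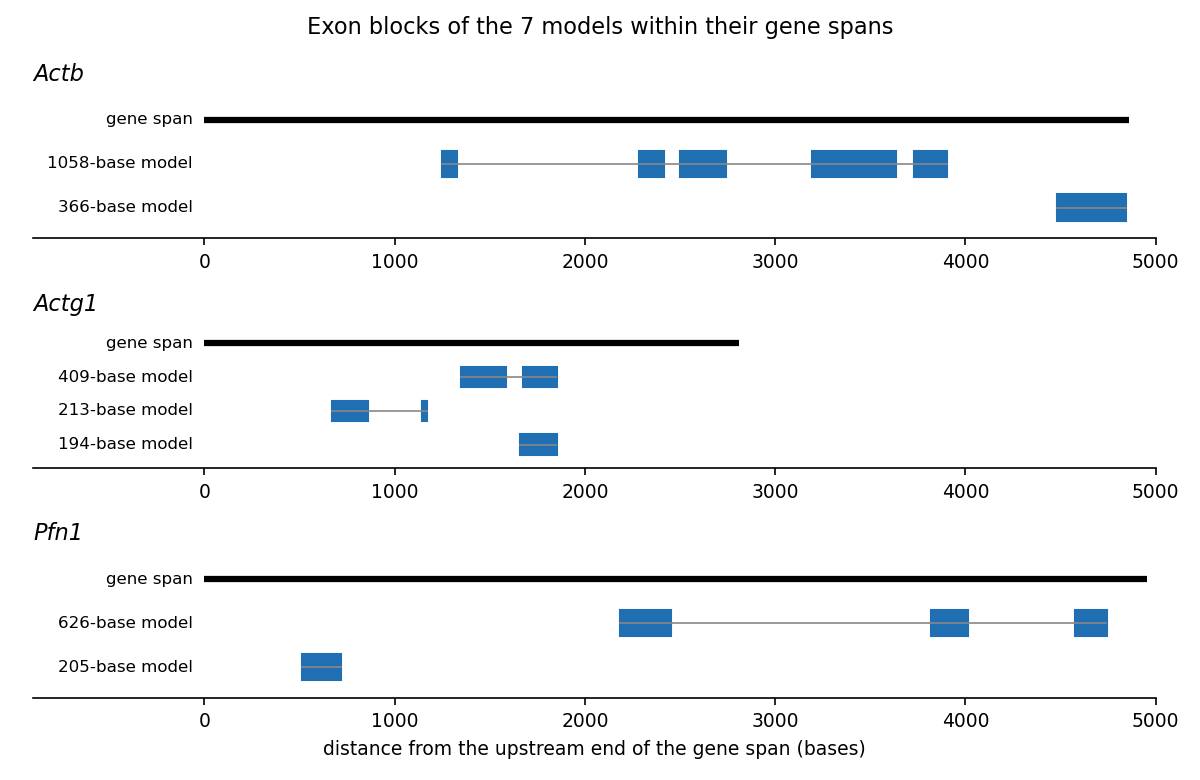
Map of the 7 models. The horizontal axis is the distance in bases from the upstream end of the gene span (black bar), boxes are exon blocks and thin lines join the blocks of 1 model; the 366-base Actb model sits at the downstream end of its gene and the 205-base Pfn1 model near the upstream end.

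The promoters of Actg1 and Pfn1 are shown for 2 short motifs, the repeat unit that the probe targets and the box that SRF binds. They are the 250 bases before the start site on the minus strand, 5′ to 3′, from RefSeq (GRCm38.p6), at chr11:120348496-120348745 and chr11:70654651-70654900. Capitals mark a CArG box in Actg1 and, in Pfn1, CCCTAA, which is the telomere repeat unit TTAGGG on the other strand.
Actg1: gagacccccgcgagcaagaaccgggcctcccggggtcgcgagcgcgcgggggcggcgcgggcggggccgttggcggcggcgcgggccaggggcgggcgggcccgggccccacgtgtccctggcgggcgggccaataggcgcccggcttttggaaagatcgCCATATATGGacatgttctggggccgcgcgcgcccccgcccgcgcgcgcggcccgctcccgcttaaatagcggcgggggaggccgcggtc
Pfn1: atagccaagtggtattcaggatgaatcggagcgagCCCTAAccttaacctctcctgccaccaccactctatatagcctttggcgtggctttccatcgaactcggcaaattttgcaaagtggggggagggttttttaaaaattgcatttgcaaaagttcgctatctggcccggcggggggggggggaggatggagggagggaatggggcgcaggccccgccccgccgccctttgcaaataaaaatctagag

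The Actg1 box begins 90 bases before the start site. A CArG box stood in 1.47% of 32851 promoter windows of this length, searched on both strands. The CCCTAA of Pfn1 begins 215 bases before its start site, and TTAGGG on either strand stood in 9.32% of the same windows. The Actg1 window held no TTAGGG on either strand and the Pfn1 window held no CArG box. The promoter of Actb is not shown here, so nothing is said of its motifs.

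The 6 libraries held 1803723 to 3122558 reads, of which 35.7% to 69.2% lay in the models, and 1 read was worth 0.320 to 0.554 CPM, the count over the library total scaled to 1000000. Masked TH59-DB 1 stood apart from the rest. A single 414-base model in the span of Zc3h7a held 50.8% of its reads, 4341 of its 7959 models had 0 reads against 0 to 1884 in the other libraries, and every model had at least 5 reads in TH59-DB 1. Terc, the RNA template of telomerase, made up 3.13% and 1.40% of the TH59-DB libraries and at most 0.00771% of any other. Of 19 erythroid markers 10 had a model, with summed levels of 895 to 1245 CPM in the input, 577 to 1202 in masked TH59-DB and 461 to 556 in TH59-DB; defining genes such as the globins had no model. Of 12 markers of other blood cells 2 had a model (24.1 to 49.4 CPM in the input), and of 10 markers of other tissues 0 had one. The part of these differences between libraries in the results that follow was not tested.

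Actb was the most abundant of the 3 genes in the input. Its 1058-base model had 356 and 482 CPM in input 1 and 2, 72.6 and 273 CPM in masked TH59-DB 1 and 2, and 102 and 83.0 CPM in TH59-DB 1 and 2. Both captures thus lay below both inputs, and the masked libraries were far apart from each other, on either side of the TH59-DB libraries. Its 366-base model had 30.1 CPM in each input library, 1.52 and 32.3 CPM in masked TH59-DB, and 17.2 and 9.27 CPM in TH59-DB. That is, the downstream end of the gene was as high in masked TH59-DB 2 as in the input and rested on 3 reads in masked TH59-DB 1.

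Relative to its level, Actg1 was the gene whose libraries differed most within the input and within masked TH59-DB; in CPM the spread of Actb within masked TH59-DB was wider. Its 409-base model had 26.5 and 84.1 CPM in the input, 0.507 and 31.4 CPM in masked TH59-DB, and 13.3 and 17.0 CPM in TH59-DB. Its 213-base model had 27.8 and 69.4 CPM in the input, 0 and 56.0 CPM in masked TH59-DB, and 3.88 and 10.4 CPM in TH59-DB. Its 194-base model had 21.8 and 77.8 CPM in the input, 0 and 23.7 CPM in masked TH59-DB, and 11.1 and 13.9 CPM in TH59-DB. All 3 models were higher in input 2 than in input 1, and together they held 1 read in masked TH59-DB 1. A count of 0 there allows up to 1.52 CPM (3 reads, counting error only). Few models of like mean abundance were so low in that library: of 436 models with mean input levels within 1.5-fold of the 409-base model, 13 had at most 1 read (2.98%). The share depends on the input level used, which differed between the inputs. Within 1.5-fold of the 366-base Actb model, at 30.1 CPM and nearer to input 1, 74 of 719 models had at most 1 read (10.3%).

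Pfn1 differed from the actins in its level in masked TH59-DB 1. Its 626-base model had 116 and 122 CPM in the input, 122 and 99.6 CPM in masked TH59-DB, and 33.8 and 24.7 CPM in TH59-DB. The input and masked libraries overlapped, and both TH59-DB libraries lay below all 4 of them. In masked TH59-DB 1 the model stood at 102% of its mean input level, where the median of 188 models of like input level was 38.6%; the 1058-base Actb model stood at 17.3% there (median of 44 like models 36.9%) and the 409-base Actg1 model at 0.918% (median 40.5%).

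These levels depend on the library total, because a few models fill much of it. The 2 models with the most reads over all libraries held 57.9% of masked TH59-DB 1, against 7.19% to 30.1% of the others. With totals that leave them out, Pfn1 had 151 and 156 CPM in the input, 289 and 126 CPM in masked TH59-DB, and 48.4 and 26.6 CPM in TH59-DB. The TH59-DB libraries were again the lowest, but the masked mean then lay above the input mean (ratio 1.36 against 0.931 with full totals). The 1058-base Actb model had 461 and 619 CPM in the input, 172 and 346 CPM in masked TH59-DB and 146 and 89.5 CPM in TH59-DB, so that on this scale both TH59-DB libraries were below both masked ones.

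The 205-base Pfn1 model was the only member that did not pass the filter on low counts, and it showed another pattern. It had 15 reads in TH59-DB 1 (8.32 CPM), 2 reads in input 1 (0.670 CPM) and 0 in the other 4 libraries. Within library number 1 it was 12.4-fold above the input (95% exact interval 2.89 to 112, counting error only) and at least 5.46-fold above masked TH59-DB, taking 3 reads as the floor. TH59-DB 2 had 0 reads. Every model in the tables has at least 5 reads in TH59-DB 1, so a model this low elsewhere was listed only because of that library, and these ratios are a description.

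**Figure D2:**
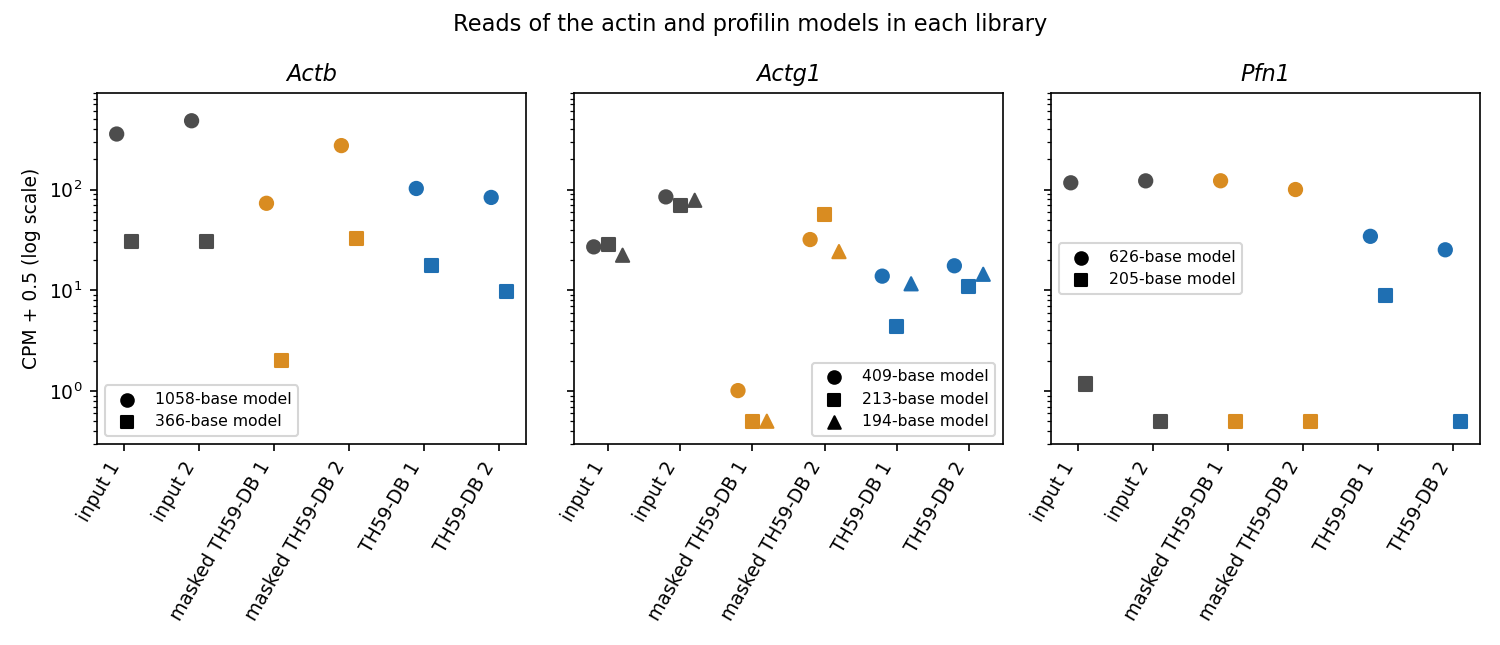
Reads of each model in each library, as CPM + 0.5 on a log scale; every point is 1 library, colours mark the groups (grey input, orange masked TH59-DB, blue TH59-DB) and shapes the models. The 3 Actg1 models sit at or near the bottom in masked TH59-DB 1, while the 626-base Pfn1 model stays near 100 CPM in every input and masked library and is at 33.8 and 24.7 CPM in TH59-DB.

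Per kilobase of model, which allows genes to be set beside each other, the order of the leading models (the model of each gene with the most CPM, before division by length) in the input was Actb (396 ± 84.4 CPM per kb, SD, n = 2), Pfn1 (190 ± 6.0) and Actg1 (135 ± 99.6). Actb lay above 98.2% of all models, Pfn1 above 95.7% and Actg1 above 93.5%. Actb exceeded both others in each input library. Pfn1 and Actg1 were not separated, since the Actg1 libraries lay on both sides of Pfn1. The order of these 2 genes depends on the model: the shorter Actg1 models had 228 ± 138 (213 bases) and 257 ± 204 CPM per kb (194 bases, SD, n = 2), with libraries again on both sides of Pfn1. In TH59-DB the levels were 87.5 ± 12.7 for Actb, 46.8 ± 10.3 for Pfn1 and 37.0 ± 6.4 CPM per kb for Actg1 (SD, n = 2), with Actb highest in both libraries and the ranges of the other 2 overlapping. The 194-base Actg1 model, at 57.2 and 71.7 CPM per kb, lay above Pfn1 (54.0 and 39.5) in both. In masked TH59-DB 1 the order was Pfn1 (195), Actb (68.6) and Actg1 (1.24 CPM per kb), and in masked TH59-DB 2 Actb (258), Pfn1 (159) and Actg1 (76.7), where the 213-base Actg1 model had 263.

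Set against the control probe, the TH59-DB libraries show what the telomere probe isolated beyond background. None of the 6 tested member models passed (edgeR's quasi-likelihood test, Benjamini-Hochberg adjusted p from 0.318 to 0.999 over all 5385 models tested); 1 had an unadjusted p under 0.05 and DESeq2 called 0. Among all models, 1.41% passed, all of them higher. The 626-base Pfn1 model had the lowest fitted value of the members, -1.77 on the log2 scale with an SE of 0.66 (edgeR adjusted p = 0.318), against a median of 0.30 over all models, and only 1.97% of models lay lower. Its masked mean was 3.78 times its TH59-DB mean (111 ± 15.7 against 29.3 ± 6.4 CPM, SD, n = 2) and the groups did not overlap. Groups did not overlap in this direction in 14.7% of all models. The same held for 7 of 18 tested housekeeping genes, the members included. Every listed model had at least 5 reads in TH59-DB 1, while 4341 had 0 reads in masked TH59-DB 1. Values over all models are therefore not those of models of like abundance. Under 13 other settings its log2 fold change stayed below 0, from -2.44 to -1.30, with adjusted p from 0.116 to 0.911.

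Among the actins, the 1058-base Actb and 213-base Actg1 models were below 0 in 12 of 13 other settings each, the 366-base Actb model in 7, and the 409- and 194-base Actg1 models in 3 and 2. The 1058-base Actb model stood at -0.52 on the log2 scale, with an SE of 0.74 (edgeR adjusted p = 0.951), which turned to 0.012 without masked TH59-DB 2. The 409-base and 194-base Actg1 models had 0.48 and 0.62 and the 213-base model -1.25 (adjusted p from 0.937 to 0.973). Without masked TH59-DB 1 these 3 values were -0.40, -0.29 and -2.15 (adjusted p = 0.895, 0.927 and 0.289). Without masked TH59-DB 2, where the control is the library with 1 Actg1 read, they were 4.60, 8.14 and 7.52 (edgeR adjusted p = 0.0220, 0.00843 and 0.0153), beside a median of 5.10 over all models, of which 20.6% passed as higher. With 1 control library left, the fit assumes that it varies like the other groups.

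Ratios taken by library number use the same libraries, so the split between masked TH59-DB 1 and 2 had to show in them again. The files of numbers 1 and 2 were written differently (in strand entries, and in the exons listed for 264 models), so ratios within a number are given with 95% exact intervals that cover counting error only. For Pfn1, TH59-DB over masked TH59-DB was 0.278 (0.206 to 0.369) in number 1 and 0.248 (0.187 to 0.326) in number 2. For the 1058-base Actb model it was 1.41 (1.12 to 1.76) in number 1 and 0.304 (0.261 to 0.354) in number 2. The Actb ratio of number 1 falls below 1 with totals that leave out the 2 largest models (146 against 172 CPM), while those of Pfn1 keep their direction. For the 409-base Actg1 model it was 26.2 (4.28 to 1078, from 1 masked read) in number 1 and 0.541 (0.370 to 0.780) in number 2.

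**Figure D3:**
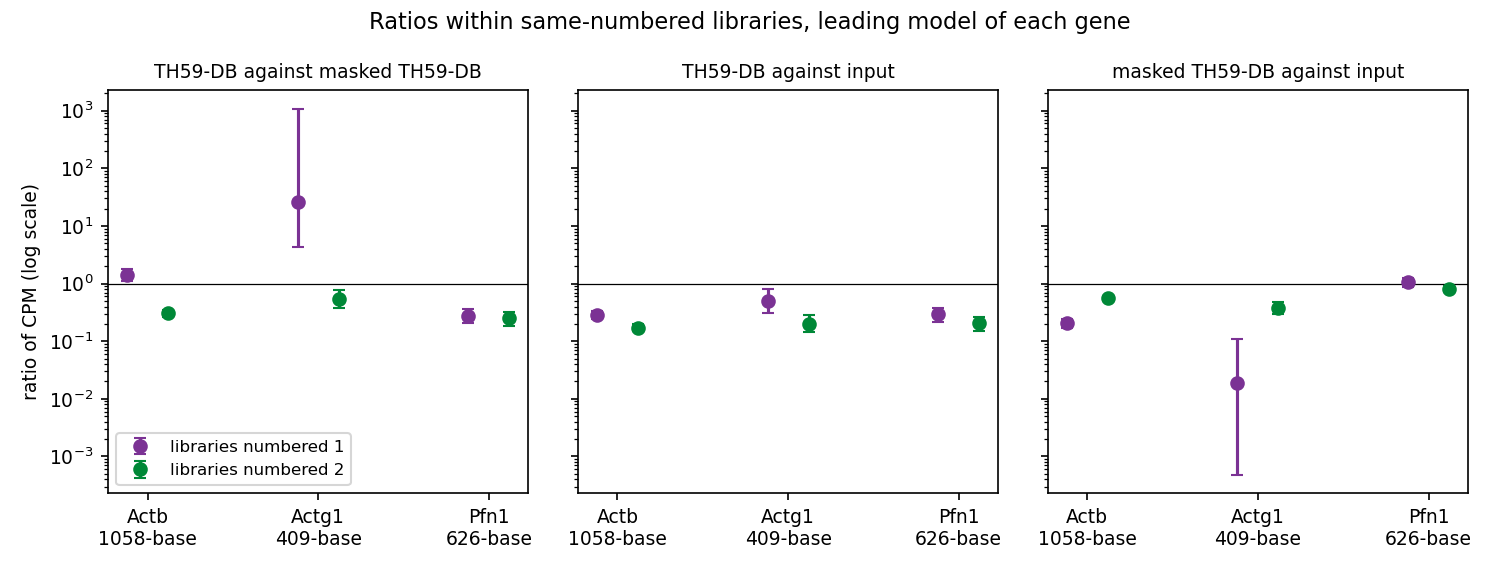
Ratios of CPM between groups within the libraries numbered 1 (purple) and 2 (green), for the leading model of each gene, on a log axis with 95% exact counting intervals; the horizontal line marks a ratio of 1. In the left panel the Pfn1 points nearly coincide at 0.278 and 0.248 while those of Actb and Actg1 lie on both sides of 1, and in the middle panel all points are below 1.

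The comparison of TH59-DB with input asks how the captured RNA differs from the RNA in the starting chromatin. Values below 0 on the log2 scale were found for all 6 tested models, from -2.38 to -1.27, with a median of -1.87 against 0.03 over all models, but 0 passed (edgeR adjusted p from 0.161 to 0.696); 2 had an unadjusted p under 0.05 and DESeq2 called 0. Among all models 3.62% passed, 3.58% as higher and 0.0371% as lower. In each of the 6 models both TH59-DB libraries lay below both inputs, which held for 23.5% of all models. It also held for 16 of 18 tested housekeeping genes, the members included. Every listed model had at least 5 reads in TH59-DB 1, while 1760 and 1884 models had 0 reads in input 1 and 2. The median and shares over all models are therefore not those of models of like abundance. The 626-base Pfn1 model had -2.03 (SE 0.66, adjusted p = 0.161) and the 1058-base Actb model -2.12 (SE 0.77, adjusted p = 0.215). The 409-base Actg1 model had -1.59 (SE 1.10, adjusted p = 0.642) and the 213-base model -2.38 (SE 1.41, adjusted p = 0.545). With any 1 library left out all stayed below 0 and none passed, but the sizes moved: the range was -2.82 to -1.50 for the 1058-base Actb model, -2.63 to -1.47 for Pfn1, and -2.71 to -0.74, -4.31 to -1.29 and -2.80 to -0.86 for the Actg1 models of 409, 213 and 194 bases.

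The input means of the leading models were 4.53 times the TH59-DB mean for Actb, 4.06 times for Pfn1 and 3.65 times for Actg1. Among the shorter models they were 2.28 times for the 366-base Actb model and 6.79 times for the 213-base Actg1 model. Differences between the genes in this ratio were not tested. Within library number 1 the ratio of TH59-DB to input was 0.287 for Actb, 0.291 for Pfn1 and 0.503 for Actg1. Within number 2 it was 0.172, 0.203 and 0.202 in the same order. Every one of these ratios was below 1 with an interval that ended below 1. The models with more than 1 exon block had a median log2 fold change of -0.59 over 1875 tested, and those with 1 block 0.43 over 3510. Spliced models as a class thus lay on the same side as the members. The tested members with 1 block did not lie on the side of their class, at -1.27 (366-base Actb) and -1.70 (194-base Actg1). Every listed model had at least 5 reads in TH59-DB 1, so the class medians too are not those of models of like abundance.

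The comparison of masked TH59-DB with input measures the background of the control capture. None of the 6 models passed (edgeR adjusted p from 0.748 to 0.971; 0 had an unadjusted p under 0.05 and DESeq2 called 0), against 0.260% of all models, all of them higher. The 626-base Pfn1 model had a log2 fold change of -0.26 (SE 0.63), equal to the median of all models of -0.26, and it turned positive with DESeq2, with summed model counts as library sizes, without input 1 and without masked TH59-DB 2. The 1058-base Actb model had -1.60 (SE 0.75, adjusted p = 0.748), with both masked libraries below both inputs, as in 14.4% of all models. The 409-base Actg1 model had -2.07 (SE 1.10, adjusted p = 0.811). Its ratio to input was 0.0192 (0.000479 to 0.110) in number 1 and 0.373 (0.292 to 0.474) in number 2. Without masked TH59-DB 2 the Actg1 models (-6.09, -9.77 and -9.76 for 409, 213 and 194 bases) and the 366-base Actb model (-3.86) passed as lower (edgeR adjusted p from 0.000746 to 0.0135), as did 14.0% of all models in that fit, whose median was -1.53 and whose lone masked library is assumed to vary like the other groups. Without masked TH59-DB 1 none of the 6 passed. The 2 comparisons with masked TH59-DB share that group's libraries, and those with the input share the input.

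**Figure D4:**
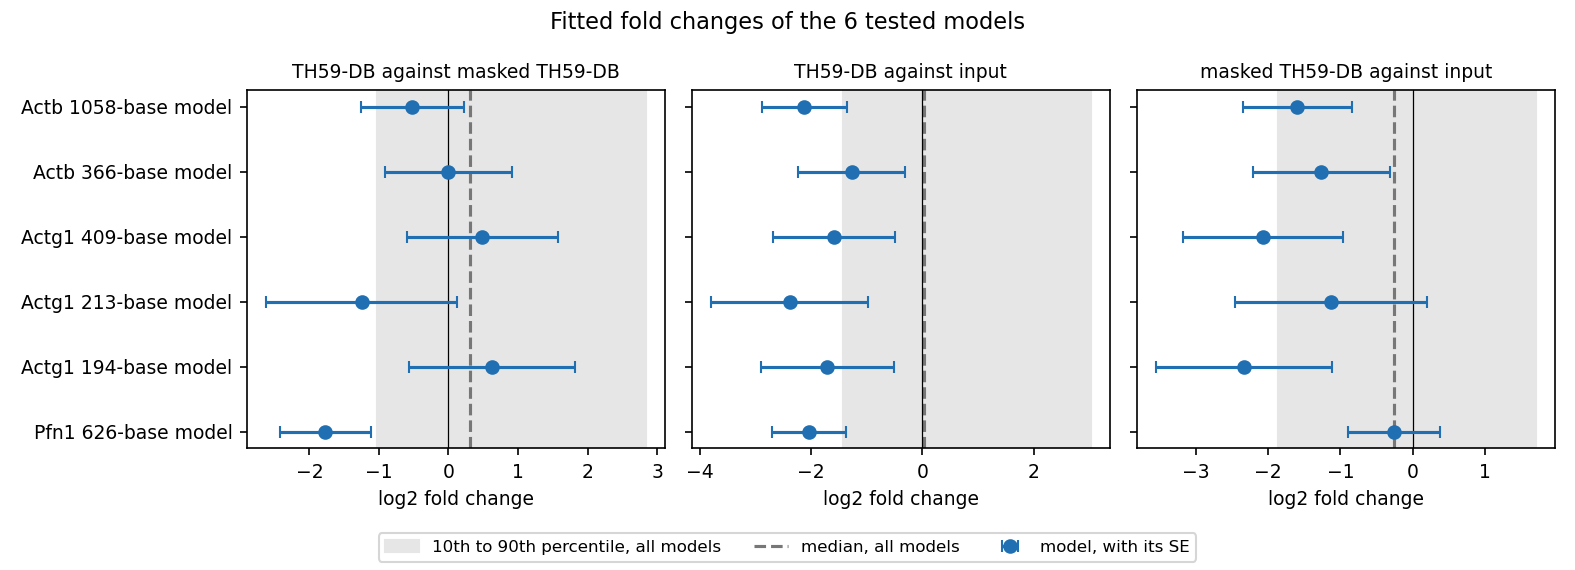
Log2 fold changes of the 6 tested models (points, with bars of 1 SE) in the 3 comparisons; the grey band spans the 10th to 90th percentile of all 5385 models and the dashed line their median. Against the input the TH59-DB points all lie below 0, and the 626-base Pfn1 model at -1.77 is the lowest against masked TH59-DB while it sits at the median between masked TH59-DB and input.

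The make-up of the reads within a library does not depend on its total, which is why the 3 genes were also set against each other as shares. Actb held 83.5% of the Actb and Actg1 reads in input 1 (95% exact interval 81.5% to 85.5%) and 80.8% in TH59-DB 1 (75.6% to 85.4%). In number 2 it held 68.9% of the input (66.9% to 70.9%) and 69.1% of TH59-DB (63.9% to 73.9%). In these sums over all models, each TH59-DB library thus overlapped the input of its own number and lay closer to it than to the other TH59-DB library. In masked TH59-DB the share was 99.3% (96.3% to 99.98%) in number 1 and 73.3% (70.8% to 75.7%) in number 2, both above the input of that number with intervals that do not meet in number 1 and meet narrowly in number 2.

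Pfn1 showed the same arrangement. It held 20.2% of the reads of the 3 genes in input 1 (18.3% to 22.2%) and 22.2% in TH59-DB 1 (17.9% to 27.0%), and 14.1% in input 2 (12.7% to 15.5%) and 15.6% in TH59-DB 2 (12.2% to 19.5%). In masked TH59-DB it held 62.0% in number 1 (57.0% to 66.9%) and 19.3% in number 2 (17.4% to 21.3%), each above its input, with intervals that do not meet. Over groups, the mean Pfn1 share was 18.9% ± 4.68 in TH59-DB, 40.7% ± 30.2 in masked TH59-DB and 17.1% ± 4.34 in the input (SD, n = 2). With 2 libraries against 2, an exact two-sided permutation test cannot give a p below 0.333; it gave 0.667 for each Pfn1 comparison and 0.667 to 1 for Actb. These shares count the overlapping 409- and 194-base Actg1 models both. With the leading models alone, Actb held 93.1% of input 1 and 85.1% of input 2, with 99.3% and 89.7% for the masked probe and 88.5% and 83.0% for TH59-DB. The Pfn1 share was then 23.3% and 17.7%, 62.5% and 24.7%, and 22.7% and 19.8% in the same order. The Actb share of TH59-DB 1 then lay nearer to that of input 2 than to that of input 1. On these leading-model shares, the exact permutation p was 0.333 for both shares in TH59-DB against masked TH59-DB and for Pfn1 in masked TH59-DB against input, and 0.667 or 1 otherwise.

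**Figure D5:**
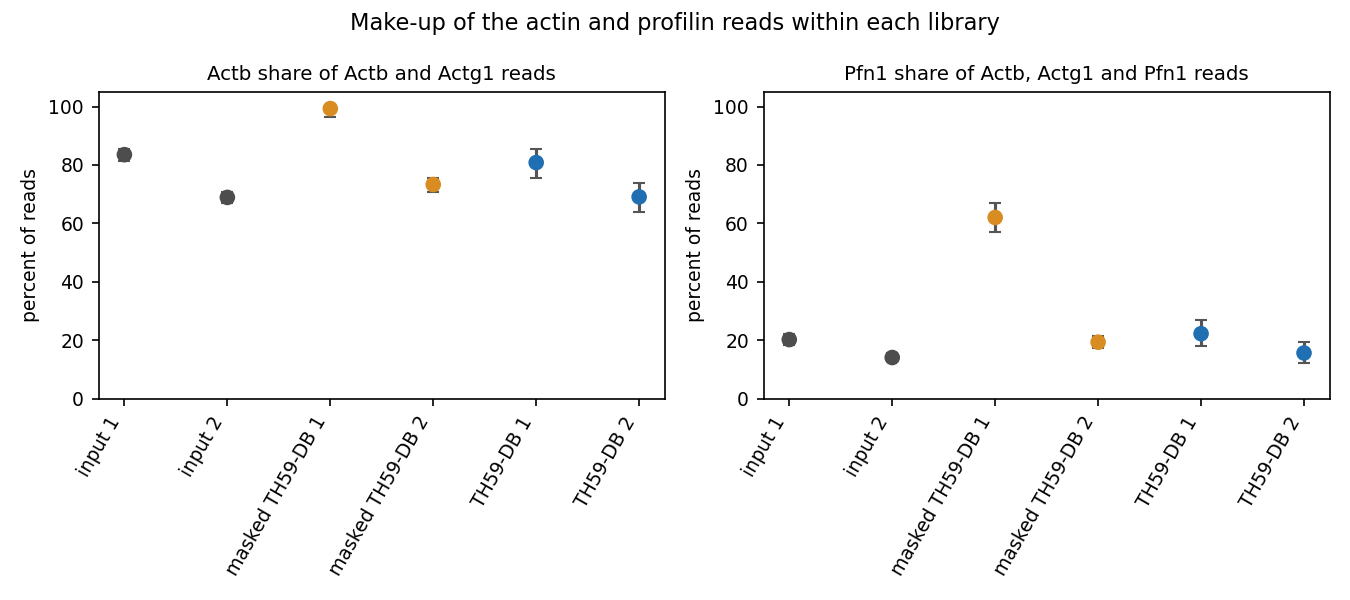
Share of Actb among the Actb and Actg1 reads (left) and of Pfn1 among the reads of the 3 genes (right) in each library, in percent, with 95% exact intervals. TH59-DB 1 lies beside input 1 and TH59-DB 2 beside input 2, while masked TH59-DB 1 is the highest in both panels, at 99.3% and 62.0%.

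The 366-base downstream model, whose reads may also come from Gm38733, held 7.81% (6.33% to 9.52%) of the reads of the Actb models in input 1. In input 2 it held 5.88% (4.73% to 7.21%). It held 14.4% in TH59-DB 1 (10.0% to 19.8%) and 10.0% in TH59-DB 2 (6.54% to 14.6%), above both inputs, with 2.05% and 10.6% in masked TH59-DB 1 and 2. The interval of TH59-DB 2 meets those of both inputs, and its value was not above that of masked TH59-DB 2. The mean difference of TH59-DB from input was 5.38 percentage points (exact permutation p = 0.333, the smallest possible). Within Actg1, the 213-base model held 51.2% and 45.2% of the reads of the 2 multi-block models in the input, 22.6% (9.59% to 41.1%, from 31 reads) and 38.0% (26.8% to 50.3%) in TH59-DB. Masked TH59-DB 2 stood at 64.1%. The 2 TH59-DB values lay below both inputs, but their intervals meet that of input 2 (which starts at 40.5%), and that of TH59-DB 2 meets that of input 1 (43.3% to 59.2%) as well; the difference was not tested.

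The genes whose levels over the 6 libraries were most like each member were taken from 3071 other genes with a tested model, by the root mean square difference of log2(CPM + 0.5) after centring on each model's own mean. For Actb these were Rack1, a scaffold protein of the ribosome (0.11), the beta-tubulin gene Tubb5 (0.13), the ribosomal protein gene Rpl27a (0.13), the mitochondrial malate dehydrogenase gene Mdh2 (0.14) and the ATP synthase subunit gene Atp5b (0.16), where the median gene was 1.24 away. Rack1 had 501 and 646 CPM in the input, 110 and 366 CPM in masked TH59-DB and 123 and 104 CPM in TH59-DB, the same order of libraries as Actb apart from the lowest places. For Pfn1 they were Gm9794 (0.19), Cdyl, a chromodomain protein gene (0.23), Rps23-ps1 (0.25), Rpia, an enzyme of the pentose phosphate pathway (0.25), and the nucleoporin gene Nup50 (0.25). Gm9794 had 34.5 and 30.8 CPM in the input, 45.2 and 29.5 CPM in masked TH59-DB and 12.2 and 8.11 CPM in TH59-DB. For Actg1 they were Chd8, a chromatin remodeller (0.15), Pdia3, a disulfide isomerase of the endoplasmic reticulum (0.30), Fem1b (0.35), Rapgef1 (0.36) and Tkt, the transketolase gene (0.37). All 5 had 0 reads in masked TH59-DB 1. Among the members, Actg1 and Pfn1 were the farthest apart (2.20, with 2341 genes closer to Actg1). Actb and Pfn1 were 0.91 apart, with 749 genes closer to Actb, and Actb and Actg1 1.31, with 1724 genes closer to Actb and 779 closer to Actg1. The distances of Actg1 from the other members lean on masked TH59-DB 1, where its model had 1 read (0.507 CPM) and that of Pfn1 122 CPM. At so few reads they also depend on the 0.5 added to the CPM.

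Of 73 genes of actin-binding and cytoskeletal proteins, 27 had a model and 25 were tested, each by its most abundant model. In TH59-DB against masked TH59-DB 0 passed in either direction (1 at an unadjusted p under 0.05, DESeq2 0), and 15 of 25 were negative, with a median of -0.37 against 0.30 over all models. In TH59-DB against input 0 passed (3 at an unadjusted p under 0.05, DESeq2 0), with 23 of 25 negative and a median of -0.62 against 0.03. In masked TH59-DB against input 0 passed (1 at an unadjusted p under 0.05, as higher, DESeq2 0) and the median was -0.46 against -0.26. Cfl1, the filament-severing protein cofilin, had 113 and 194 CPM in the input, 79.2 and 153 CPM in masked TH59-DB and 48.8 and 42.9 CPM in TH59-DB. Both its TH59-DB libraries lay below the other 4, with a log2 fold change of -1.63 against input (edgeR adjusted p = 0.255) and -1.03 against masked TH59-DB (adjusted p = 0.756).

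Cfl1 is 1 of the 6 most abundant genes of this list. Of the less abundant ones, Vasp, which aids filament growth, had -1.87 against masked TH59-DB and -1.65 against input (edgeR adjusted p = 0.301 and 0.281). Actn4, an actin cross-linker, had -1.81 against input (edgeR adjusted p = 0.253). Vasp and Actn4 were picked out after their values were seen, as genes with an unadjusted p under 0.05. By the same rule Diaph1 went the other way, at 4.93 in masked TH59-DB against input (edgeR adjusted p = 0.653). It had 3.67 in TH59-DB against input (edgeR adjusted p = 0.470), from only 0.335 and 0 CPM in the input. The other 5 of the most abundant genes were as follows. Tpm3, a tropomyosin that lies along filaments, had log2 fold changes of -0.84 against masked TH59-DB and -0.78 against input. Those of the nonmuscle myosin heavy chain genes were 0.24 and -0.58 for Myh9 and -0.37 and -0.62 for Myh10. Those of Rdx, which links filaments to the membrane, were -0.50 and -0.97, and those of Sptb, the erythroid spectrin beta chain, -0.69 and -0.42 (edgeR adjusted p from 0.557 to 0.974 for these 5 genes). Of the actin paralogs and actin-related genes only Actr1a, of the dynactin complex, had a model, with 0.69 and -0.49. Of 19 genes around SRF, 3 were tested and 0 passed (0 at an unadjusted p under 0.05, DESeq2 0): Srf itself had -0.59 and -1.01, its target Egr1 -1.53 and -0.65, and Flna, an actin cross-linker, -1.05 and -0.10.

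Other filament systems and housekeeping mRNAs lay on the same side of the input. Of 6 tested tubulin and lamin genes, all had negative values in TH59-DB against input and 0 passed (1 at an unadjusted p under 0.05, DESeq2 0), with a median of -1.21. Tubb5 had -1.96 (edgeR adjusted p = 0.236) and the nuclear lamina gene Lmna -1.17 (adjusted p = 0.504). Of 18 tested housekeeping genes, the members included, 17 were negative and 0 passed (9 at an unadjusted p under 0.05), and DESeq2 called 1, the elongation factor gene Eef1a1, lower. Their median was -1.76, and -1.66 over the 15 that are no members. Against masked TH59-DB the median of those 15 was -0.57 and the named ones lay above the -1.77 of Pfn1: Eef1a1 had -0.95, Eef2 -0.68, Hspa8 -0.61, Pkm -0.57, Hsp90ab1 -0.56 and Rplp0 -0.38. The erythroid markers had a median of -0.62 against input and -0.27 against masked TH59-DB over 10 tested, with 0 passing (1 and 0 at an unadjusted p under 0.05, DESeq2 0). Over all models the median was 0.03 against input and 0.30 against masked TH59-DB, but these are not models of like abundance. The share of all models that were negative, or at an unadjusted p under 0.05, is not given. Such counts, here and for the members and other lists, therefore stand without a background. In bulk captured chromatin, fewer cells or chromatin fragments carrying an RNA and less RNA on each cannot be told apart.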

How the data were processed

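RNA was measured in 6 libraries of MEL cell chromatin made with a stranded total RNA kit, per the labels' protocols. The counts deposited by the authors are whole reads for each assembled model, and the deposited FPKM values are, by the file values, the count divided by model length and by 1 library total, except that in 4 files (all but masked TH59-DB 1 and TH59-DB 1) a model with 0 reads carries the FPKM of 1 read; mm10 and the tools featureCounts, Cufflinks, HISAT2 and cutadapt are named in the submitters' processing notes. The strand setting and the treatment of reads that map to both actin genes are not given in the sources used here. Library totals were recovered from FPKM (2985229 and 2854992 for input, 1970838 and 3122558 for masked TH59-DB, 1803723 and 2589100 for TH59-DB). Files were joined on chromosome, starts and ends: 7695 models matched on all exons and 264 on first start and length, and the 7 members matched on all exons. Genes came from RefSeq spans (GRCm38.p6).

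The test was edgeR 4.0.16's quasi-likelihood F-test in R 4.3.3 (robust glmQLFit after filterByExpr, with TMM factors from 0.681 to 1.34), in 1 fit of all 6 libraries, which kept 5385 models; a model passed at an adjusted p under 0.05. Because of the TMM factors, fitted fold changes differ from ratios of CPM. The fold's SE is its size over the root of F. P-values measure only the spread between these libraries, which may be technical. DESeq2 1.42.0 and other settings are given at the end. The script was tested on simulated data with less spread than these libraries, whose fitted biological coefficient of variation was 0.702. That test therefore does not show how small a change could be detected here. Named genes were all members, list genes that passed or else the 6 most abundant, and the 5 genes most like each member. Members and lists were chosen with earlier results of these data known. Intervals are exact binomial and, as the reads were counted without molecular identifiers, cover counting error only.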

Additional observations from a re-analysis of the deposited data

How the results depend on the processing

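Against masked TH59-DB, 76 models passed in the fit reported above, but 267 with DESeq2, 155 without TMM factors, 155 with summed model counts as library size, 206 without the filter on low counts, 129 with only the 4 libraries compared and 191 with the replicate block. Against input, 195 became 397 (DESeq2), 312 (no filter), 497 (4 libraries) and 363 (replicate block). For masked TH59-DB against input, 14 became 121 (DESeq2), 108 (no TMM factors), 50 (summed counts), 113 (no filter) and 106 (replicate block). Leaving out 1 library gave 32 to 1720, 102 to 756 and 0 to 1413 in these 3 comparisons, each highest without masked TH59-DB 2 and lowest without TH59-DB 2 in the first and second and without either input in the third; the cause was not tested.

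Against masked TH59-DB, the 366-base Actb model, at -0.00, turned to 0.30 (DESeq2), 0.18 (summed counts), 0.088 (4 libraries) and 0.30 (replicate block), and the 409-base Actg1 model to -0.090 without TMM factors. With 1 library left out the ranges were -1.10 to 0.012 (1058-base Actb), -0.94 to 2.58 (366-base Actb), -0.56 to 4.60, -3.11 to 7.52 and -0.40 to 8.14 (409-, 213- and 194-base Actg1). For masked TH59-DB against input they were -3.86 to -0.36 (366-base Actb), -6.09 to -1.12, -9.77 to -0.13 and -9.76 to -1.35 (the Actg1 models in the same order) and -0.72 to 0.45 (626-base Pfn1), which was also 0.067 with DESeq2 and 0.072 with summed counts. The log2 ratio of mean CPM of Pfn1 moved to -2.47 against masked TH59-DB and to 0.44 for masked TH59-DB against input with totals that leave out the 2 largest models. Of the recomputed values, 234 kept their direction and their side of the threshold, or moved less than the spread, 17 turned in sign (1 of these, the 213-base Actg1 model without masked TH59-DB 2, also passed), 7 others came to pass and 32 moved further.

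The labels give libraries of the same number nothing else in common. Their files do share the form of the strand entries. Summed over all models, the Actb and Pfn1 shares of each TH59-DB library lay beside the input of its number. With the leading models alone, the Actb share of TH59-DB 1 (88.5%) was nearer to that of input 2 (85.1%) than to that of input 1 (93.1%). The differences between numbers correlated at 0.129, 0.0885 and -0.00786 over the 3 pairs of groups. These correlations cannot show whether a number marks a shared batch. With the replicate block, Pfn1 against input was -1.97 and passed (edgeR adjusted p = 0.0491), among 118 of 5385 models that passed as lower; no other member passed with it. The floor was taken as 3 reads, 0.961 to 1.66 CPM, which limits Actg1 in masked TH59-DB 1.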
